A study of Mus musculus with 12 samples.

Results

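CD11c+ lung cells of wildtype mice infected with the fungus Pneumocystis were compared between day 7 and day 14 after infection. The comparison was defined by its groups alone: the 3 wildtype arrays of day 14 against the 3 wildtype arrays of day 7, across 18193 genes. These 6 arrays are part of 12 in all, with 3 arrays in each of 4 groups. All mice, in every group, had received Pneumocystis, dosed by nuclei, into the trachea, so that no uninfected lung serves as a baseline. The other 6 arrays came from IFNAR-/- mice, in which the type I interferon receptor is missing, with 3 mice per day. Each array held RNA of a different single animal, and age, sex and strain background are not given in the sources used here. The labels describe collagenase digestion and selection on magnetic beads to a purity above 90%, with under 5% lymphocytes. The series asks if these cells respond to type I interferon after infection, and if that response bears on inflammation once clearance begins.

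CD11c, encoded by Itgax, is carried in the lung by alveolar macrophages and by dendritic cells. Alveolar macrophages live in the air spaces, clear surfactant lipid and take up inhaled particles, while dendritic cells carry antigen to lymph nodes and present it to T cells. Pneumocystis grows attached to the alveolar epithelium, and CD4 T cells are needed to clear it, with macrophages as the cells that remove the organisms. Type I interferons are cytokines that act through the IFNAR receptor on a set of antiviral genes. Macrophages under interleukin-4 and interleukin-13 take on another programme, called alternative activation, which includes chemokines for eosinophils and T helper 2 cells.

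A value here is the log2 of a gene's deposited ratio to its own median over the 12 arrays. It shows in which arrays a gene is higher or lower, but not how strongly it is expressed against another gene. The labelled cell type could therefore not be checked by level. Itgax held 0.25, -0.28 and 0.05 on day 7 against -0.15, -0.21 and -0.25 on day 14, and its difference of -0.21 ± 0.13 did not pass (limma adjusted p = 0.363). Differences are day 14 minus day 7 on the log2 scale, followed by ± the SE, the standard error from limma, and each rests on n = 3 arrays a day. Genes are said to have risen or fallen where the limma adjusted p, corrected over all genes by Benjamini-Hochberg, was under 0.05. In sorted cells, more or fewer cells of a type and more or less RNA per cell cannot be told apart.

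Signals of RNA handling also separated the wildtype days. The 5' minus 3' signal of actin and Gapdh, which is known to drop as RNA shortens, was 0.0781, 0.1781 and 0.0800 on day 7 against -0.2389, -0.1843 and -0.9124 on day 14. Spiked poly-A controls, 24 probe sets of bacterial RNA added during labelling, held 0.8345, 1.4530 and 2.1461 on day 7 against -2.1070, -1.9390 and -3.4809 on day 14. The signal of 18S ribosomal RNA was -0.1798, 0.0684 and -0.0438 on day 7 against 2.5004, 0.3010 and 0.9268 on day 14. In each of these 3 signals all day 14 arrays lay on 1 side of all day 7 arrays. Wildtype day 7 mouse 1 also stood above the other wildtype arrays in markers of lung epithelium, endothelium and fibroblasts. Among the IFNAR-/- arrays, day 7 mouse 3 and day 14 mouse 2 stood apart: the interquartile range of all gene values was 0.3235 and 0.5555 in them, against at most 0.2363 and 0.2205 in the other mice of their groups. In wildtype this range also separated the days, with 0.1842, 0.1926 and 0.1759 on day 7 against 0.3420, 0.2672 and 0.3051 on day 14.

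**Figure D1:**
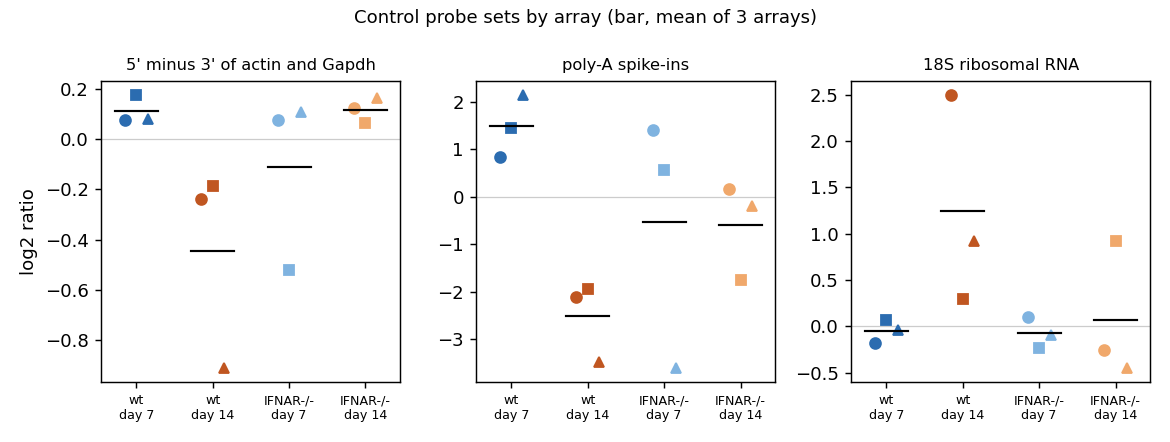
Log2 ratios of the 5' minus 3' signal of actin and Gapdh, of the poly-A spike-ins and of 18S ribosomal RNA in each of the 12 arrays, by group. Points are arrays (circle, square and triangle for mouse 1, 2 and 3) and bars are means of 3 arrays; the 3 wildtype day 14 arrays lie below all wildtype day 7 arrays in the first and second panel and above them in the last.

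Between the days 1451 genes passed the threshold, 7.98% of all genes. Of these 705 rose, or 3.88%, and 746 fell, or 4.10%. The falls were larger: 359 genes fell by at least 2-fold in size, while 125 rose by as much. The median over all genes was 0.02. In 5665 genes, 31.1%, the arrays of the days did not overlap, with day 14 above in 16.0% and below in 15.2%. A fit with the 5' minus 3' signal as a covariate called 154 genes, and 146 of those were among the 1451. In that fit all 1451 kept their sign, a median of 91% of the difference remained, and the design alone made the standard error 1.34 times as large. Taking the poly-A signal into the fit instead gave 819 calls, of which 358 were among the 1451. Again all 1451 kept their sign, and rises made up 23.2% of the calls against 48.6% without it. The part of RNA handling in the differences was not tested beyond these fits.

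The number of calls also moved with single arrays. It was 716, 786 and 889 without wildtype day 7 mouse 1, 2 and 3, and 860 and 773 without wildtype day 14 mouse 2 and 3. Without both IFNAR-/- arrays that stood apart it was 2428. Of the 1451 calls, 514 passed in each of the 12 fits that left out 1 array. The wildtype calls described below are in those 514 unless a lost call is stated. This does not cover the covariate fits. Of 120 named genes past the threshold, 38 passed with the 5' minus 3' covariate and 51 with the poly-A covariate. Among those that passed with neither were Ptgs2, Gja1, Ocstamp, Marco, Flvcr2 and Fabp1. Rbp4 did not pass with the 5' minus 3' covariate.

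The largest rise was that of Rbp4, the plasma carrier of retinol, which held 0.33, -2.75 and -1.18 on day 7 against 4.28, 3.41 and 3.93 on day 14. This is a difference of 5.07 ± 0.77 (limma adjusted p = 0.00402), or 33.7-fold. Cd163, the macrophage receptor for haemoglobin bound to haptoglobin, held -0.81, -0.85 and -0.80 on day 7 against 4.07, 2.82 and 3.02 on day 14. It rose by 4.12 ± 0.54 (limma adjusted p = 0.00181), and its 3 day 7 arrays were nearly equal. The chemokine Ccl24, known as eotaxin-2, rose by 3.76 ± 0.33 (limma adjusted p = 2.78e-04), and Timp1, an inhibitor of matrix metalloproteinases, by 3.27 ± 0.40 (limma adjusted p = 0.00131). Gja1, which encodes connexin 43, rose by 3.06 ± 0.58 and Ocstamp, a membrane protein needed for fusion of osteoclasts and macrophages, by 2.88 ± 0.47 (limma adjusted p = 0.00987 and 0.00544). The 6 probe sets of Gja1 lay between 0.16 and 4.72. The germ cell helicase Ddx4, the tubulin gene Tuba8, the membrane protein gene Tmem26 and the homeobox gene Msx3 rose by 2.96, 2.90, 2.91 and 2.84.

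Both remaining large rises rested on few arrays. Rnase2a, a ribonuclease of the eosinophil family, held -0.44, -4.05 and 0.38 on day 7 against 2.45, 1.98 and 2.17 on day 14, so that mouse 2 set much of its difference of 3.57 ± 0.94. Its call was lost in 8 of the 12 fits that left out 1 array, with a limma adjusted p of up to 0.104. The cytokine Il33 rose by 3.11 ± 0.69 (limma adjusted p = 0.0205), a call lost without wildtype day 7 mouse 2 or day 14 mouse 3 (limma adjusted p up to 0.0782). Fbp1, a gluconeogenic enzyme, shows the same dependence without a call: it held 0.24, -1.12 and 5.07 on day 7 against 6.78, 3.78 and 4.76 on day 14, where mouse 3 was as high at day 7 as the day 14 mice, and its difference was 3.70 ± 1.25 (limma adjusted p = 0.1).

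**Figure D2:**
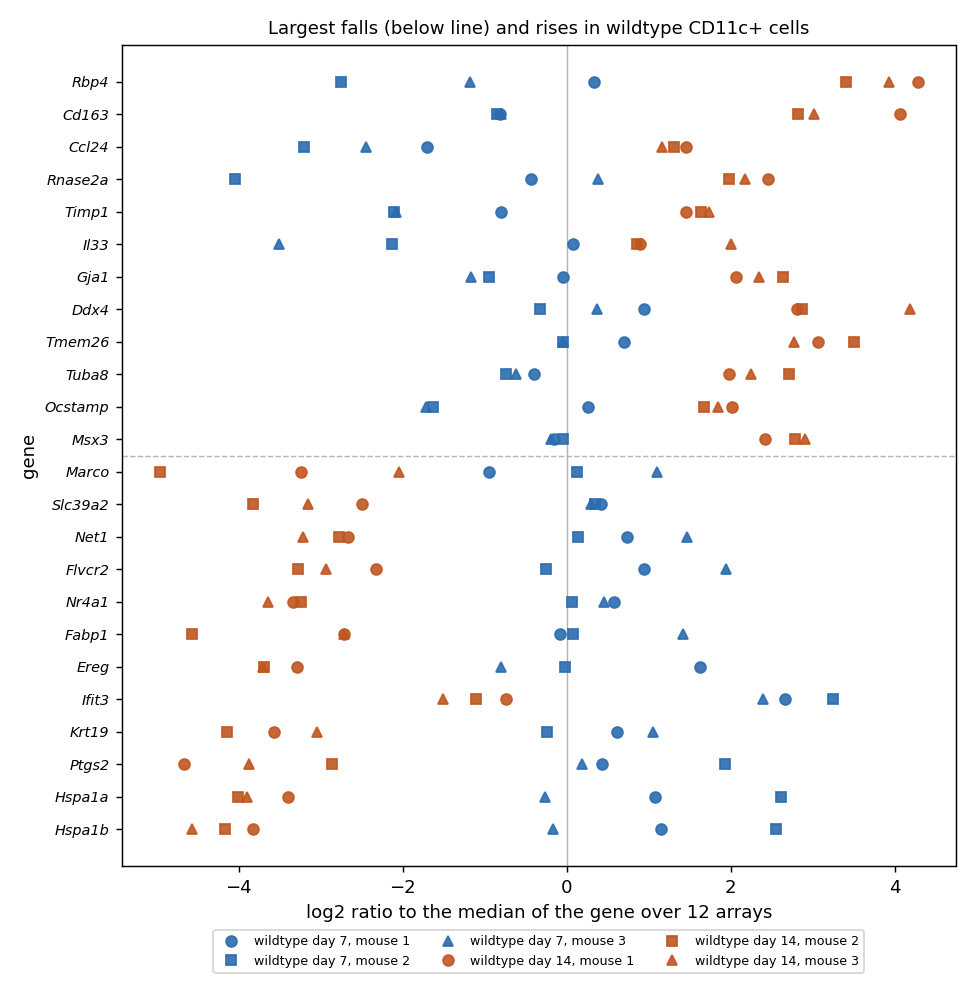
Log2 ratio of the 12 genes with the largest rise (above the dashed line) and the 12 with the largest fall (below it) in each wildtype array. Blue points are day 7 and orange points day 14, with circle, square and triangle for mouse 1, 2 and 3; no gene has overlapping days, as the choice of these genes required.

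Among the largest falls were inducible stress and inflammatory genes. The near-identical heat shock genes Hspa1b and Hspa1a, whose probe sets may not separate them, held 1.15, 2.55 and -0.17 on day 7 against -3.83, -4.17 and -4.57 on day 14 and 1.08, 2.61 and -0.26 on day 7 against -3.40, -4.01 and -3.90 on day 14. They fell, with differences of -5.37 ± 1.14 and -4.91 ± 1.14 (limma adjusted p = 0.0169 and 0.0248). Both calls were lost without wildtype day 7 mouse 1 or 2 and without day 14 mouse 2 or 3, and that of Hspa1a also without day 14 mouse 1 (limma adjusted p up to 0.0644 and 0.0896). These were the only members of the 20 measured heat shock and chaperone genes past the threshold. Ptgs2, the inducible cyclooxygenase, held 0.43, 1.93 and 0.19 on day 7 against -4.67, -2.86 and -3.88 on day 14 and fell by 4.65 (limma adjusted p = 0.00264), or 25.2-fold. Ereg, an EGF receptor ligand, fell by 3.83 (limma adjusted p = 0.0299), a call lost without any 1 of 5 wildtype arrays, all but day 7 mouse 3 (limma adjusted p up to 0.11). The zinc transporter Slc39a2, the RhoA exchange factor Net1 and the membrane transporter Flvcr2 also fell, with differences of -3.51, -3.67 and -3.72.

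The type I interferon-stimulated genes formed the list with the highest share of falls. Of 35 measured members 28 fell and 0 rose, also at an unadjusted limma p under 0.05, against 4.10% of all genes that fell. The median member differed by -1.58, all 35 differences were below 0, and in 33 members every day 14 array lay below every day 7 array. Fits that left out 1 array called between 21 and 30 falls, the fit with the 5' minus 3' covariate 10 and that with the poly-A covariate 26. The list median was highest in the 3 wildtype day 7 mice among all 12, with 1.24, 1.88 and 1.10 against -0.04, -0.06 and -0.18 at day 14.

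Oas3, a sensor of double-stranded RNA that makes 2-5A, held 3.03, 3.72 and 2.51 on day 7 against -0.02, -0.07 and -0.08 on day 14. It fell by 3.14 ± 0.28 (limma adjusted p = 3.19e-04), or 8.81-fold, and its day 14 arrays were almost equal. Irf7, the transcription factor that amplifies interferon production, held 2.80, 3.65 and 2.60 on day 7 against -0.10, 0.06 and -0.27 on day 14 and fell by 3.12 ± 0.36 (limma adjusted p = 0.00114). The effector Ifit3, which binds with other IFIT proteins to foreign RNA, held 2.66, 3.25 and 2.39 on day 7 against -0.74, -1.10 and -1.51 on day 14 and fell by 3.88 ± 0.58 (limma adjusted p = 0.00365). In each of these genes the lowest day 7 mouse stood over 2 units above the highest day 14 mouse. The RNA sensors Ifih1 and Ddx58, which encode MDA5 and RIG-I, fell, with differences of -1.50 ± 0.15 and -1.21 ± 0.14 (limma adjusted p = 4.94e-04 and 0.00114). Ifit1 fell by 2.09 (limma adjusted p = 0.0169), a call lost without wildtype day 7 mouse 2 or day 14 mouse 2 or 3. Oas1a fell by 1.02 (limma adjusted p = 0.015), lost without day 7 mouse 2 or day 14 mouse 2. Ifnb1, the gene of interferon beta itself, did not pass: it held -0.38, -0.33 and -0.22 on day 7 against -0.55, 0.04 and 0.20 on day 14, a difference of 0.21 ± 0.34 (limma adjusted p = 0.787).

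Promoters of 3 interferon-induced genes that fell are shown because they hold the core of the interferon-stimulated response element, a motif of many interferon-induced promoters. The core was searched as GAAA, any 2 bases and GAAA on both strands, and capitals mark its matches, which begin with TTTC where they lie on the other strand. Windows came from RefSeq, build GRCm38.p6, from 250 bases before to 50 after a gene's start, and the stretches printed lie before the start.
Ifit3, chr19:34583318-34583437, + strand: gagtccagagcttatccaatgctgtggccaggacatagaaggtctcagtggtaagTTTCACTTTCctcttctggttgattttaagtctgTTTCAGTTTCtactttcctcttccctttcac
Oas3, chr5:120777670-120777789, - strand: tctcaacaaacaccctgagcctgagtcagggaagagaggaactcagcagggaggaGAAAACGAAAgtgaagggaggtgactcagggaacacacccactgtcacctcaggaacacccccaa
Cxcl10, chr5:92349038-92349139, - strand: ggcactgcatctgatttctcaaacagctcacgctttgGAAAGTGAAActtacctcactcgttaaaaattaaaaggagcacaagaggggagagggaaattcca
The matches begin 156 and 122 bases before the start in Ifit3, 75 in Oas3 and 213 in Cxcl10. The motif was present in 13 of the 23 measured interferon-stimulated genes with a window, 56.5%, and in 11 of the 19 among these that fell. It was in 524 of 14452 measured genes with a window, 3.63%, in 58 of 596 genes that fell, 9.73%, and in 19 of 575 that rose, 3.3%. A match describes letters only, and the interferon-stimulated list was itself drawn up from genes known to respond.

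Genes of the interferon gamma axis fell less uniformly. Of 18 measured members 4 fell and 0 rose (1 at an unadjusted limma p under 0.05), with a median of -1.27, and 7 fell without wildtype day 7 mouse 3 or without both IFNAR-/- arrays that stood apart. With the poly-A covariate 8 fell, and with the 5' minus 3' covariate limma called 0, with 4 lower and 1 higher at an unadjusted p under 0.05. The ligands of CXCR3, which draw activated T cells, led the falls: Cxcl10 held 0.83, 1.94 and -0.01 on day 7 against -2.13, -1.77 and -2.38 on day 14 and fell by 3.01 ± 0.45, and Cxcl9 held 1.91, 2.41 and 0.94 on day 7 against -0.70, -0.59 and -1.57 on day 14 and fell by 2.71 ± 0.52 (limma adjusted p = 0.00372 and 0.0113). Mouse 2 had the highest value of both at day 7. The receptor gene Cxcr3 fell by 0.84, a call lost without any 1 of 5 wildtype arrays, all but day 7 mouse 3. Gbp7, an interferon-inducible GTPase, fell by 1.49. Ifng itself held 1.15, 2.04 and -0.07 on day 7 against -1.02, 0.02 and -0.05 on day 14, and its difference of -1.39 ± 0.54 did not pass (limma adjusted p = 0.149).

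Several cytokines of acute inflammation fell. Of 26 measured cytokines 7 fell and 1 rose, and the 7 were Il1b, Il18, Il1a, Osm, Tnf, Il15 and Il6. With the 5' minus 3' covariate 4 fell and with the poly-A covariate 6. Il1b, which is released by inflammasomes, held 0.32, 0.28 and 0.21 on day 7 against -2.08, -2.51 and -2.29 on day 14. Its fall of 2.57 ± 0.21 (limma adjusted p = 2.46e-04) is 5.92-fold, far wider than the spread within either day. Il1a, the gp130 cytokine Osm, Tnf and Il18 fell, with differences of -2.49, -2.51, -2.57 and -3.16 (limma adjusted p = 0.00211, 0.00254, 0.00531 and 0.00162). Il6 held 0.24, -0.42 and 0.21 on day 7 against -3.72, -3.41 and -2.13 on day 14 and fell by 3.09 ± 0.77 (limma adjusted p = 0.0323). That call was lost without any 1 of 5 wildtype arrays, all but day 14 mouse 3. Cybb, the catalytic subunit of the phagocyte oxidase, was chosen after its value was seen: it held 0.41, 0.57 and 0.17 on day 7 against -2.34, -2.27 and -2.85 on day 14 and fell by 2.87 ± 0.22 (limma adjusted p = 2.02e-04). Ccrl2, a chemokine-binding receptor chosen the same way, fell by 3.18 ± 0.22 (limma adjusted p = 2.02e-04).

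Chemokines moved in both directions. Of 24 measured, 4 rose (Ccl24, Ccl22, Ccl17 and Ccl12) and 5 fell (Cxcl2, Cxcl1, Cxcl3, Cxcl14 and Ccl3). Cxcl2 and Cxcl1 bind CXCR2 and draw neutrophils. Cxcl2 held 0.23, 0.04 and -0.01 on day 7 against -3.24, -3.27 and -2.51 on day 14 and fell by 3.09 ± 0.29 (limma adjusted p = 4.13e-04). Cxcl1 held 0.48, -0.58 and -0.02 on day 7 against -3.63, -3.84 and -3.14 on day 14 and fell by 3.50 ± 0.51 (limma adjusted p = 0.00327), and in both genes the days lay far apart. Ccl22 and Ccl17 bind CCR4 on T helper 2 and regulatory T cells, and Ccl24 binds CCR3 on eosinophils. Ccl24 held -1.70, -3.20 and -2.45 on day 7 against 1.46, 1.31 and 1.16 on day 14. Ccl22 held -1.04, -1.22 and -0.88 on day 7 against 1.47, 0.85 and 2.13 on day 14 and rose by 2.53 ± 0.28 (limma adjusted p = 0.0011), and Ccl17 rose by 2.28 ± 0.49 (limma adjusted p = 0.0178), which passed in 9 of the 12 fits that left out 1 array. Ccl2, which draws monocytes through CCR2, differed by 1.15 ± 0.34 without passing (limma adjusted p = 0.0648). The calls of Ccl12, Cxcl3, Cxcl14 and Ccl3 passed in 7, 7, 5 and 4 of those 12 fits. The count of rises dropped to 2 without wildtype day 14 mouse 1 or mouse 3 and with the 5' minus 3' covariate, and the count of falls to 2 or 3 without any 1 wildtype array or IFNAR-/- day 7 mouse 1 and with either covariate.

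Promoters of the neutrophil chemokines are shown for their kB motif, the site of NF-kB, searched as GGGA, any 2 bases and TTCC on both strands. The capitals in both stretches, from RefSeq windows of build GRCm38.p6, are 1 symmetric run that holds overlapping matches of both strands.
Cxcl1, chr5:90891119-90891238, + strand: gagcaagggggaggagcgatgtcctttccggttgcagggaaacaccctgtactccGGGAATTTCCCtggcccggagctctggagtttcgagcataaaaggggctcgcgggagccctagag
Cxcl2, chr5:90903747-90903866, + strand: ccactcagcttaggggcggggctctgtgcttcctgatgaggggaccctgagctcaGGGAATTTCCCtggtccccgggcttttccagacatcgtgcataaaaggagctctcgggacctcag
The runs begin 71 bases before the start in Cxcl1 and 97 in Cxcl2. The motif was in 3 of the 5 chemokine genes that fell and in 3 of 16 measured chemokines with a window, so that no chemokine outside the fallen ones held it. Over all measured genes with a window it was in 246, or 1.7%, with 17 of 596 genes that fell, 2.85%, and 4 of 575 that rose, 0.696%. Both genes lie close together on chromosome 5 and are related copies, so that they are not independent examples.

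Immediate-early transcription factors, which cells switch on within minutes of a stimulus, mostly fell. Of 26 measured members 19 fell and 0 rose (1 at an unadjusted limma p under 0.05), with a median of -1.09. The count was 11 without wildtype day 7 mouse 1 and reached 22 in another fit that left out 1 array, and it was 7 with the 5' minus 3' covariate and 11 with the poly-A covariate. Nr4a1, an orphan nuclear receptor, held 0.58, 0.07 and 0.45 on day 7 against -3.34, -3.24 and -3.64 on day 14 and fell by 3.77 ± 0.45 (limma adjusted p = 0.00128). Fosb, an AP-1 subunit, held 0.65, 0.16 and 0.05 on day 7 against -2.37, -3.12 and -3.13 on day 14 and fell by 3.16 ± 0.38 (limma adjusted p = 0.00128). Both genes were near their 12-array median in all 3 day 7 mice and far below it in all 3 day 14 mice. Nr4a2 and the antiproliferative gene Btg2 fell, with differences of -2.67 and -2.35 (limma adjusted p = 0.00114 and 8.68e-04), where 1 of the 6 probe sets of Nr4a2 ran the other way. The array IFNAR-/- day 14 mouse 2 had an 18S signal of 0.9169, a poly-A signal of -1.7497 and a 5' minus 3' signal of 0.0637. It was low in several of the inducible genes above, picked here after their values were seen. The array held -2.05 for Nr4a1, -1.69 for Fosb, -3.79 for Hspa1b, -3.89 for Ereg and -3.11 for Il6. The other 2 mice of its group lay between -0.50 and 1.40 in these genes. For Il1b and Il1a the same array held -0.56 and -0.41. A link between these signals and the low values was not tested.

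The Btg2 promoter is shown for its cyclic AMP response element, the site of CREB, searched as TGACGTCA, which reads alike on both strands. The capitals begin 166 bases before the start, in the RefSeq window of build GRCm38.p6.
Btg2, chr1:134079259-134079376, - strand: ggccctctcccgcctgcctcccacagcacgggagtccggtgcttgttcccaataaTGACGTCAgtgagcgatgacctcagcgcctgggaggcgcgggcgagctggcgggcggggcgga
This motif was in 3 of 21 measured immediate-early genes with a window, 14.3%, and in 2.92% of all measured genes with one. It was in 20 of 596 genes that fell, 3.36%, and in 26 of 575 that rose, 4.52%.

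Many feedback genes of NF-kB and some receptors that feed it fell as well. Of 18 measured NF-kB feedback genes 10 fell and 0 rose, also at an unadjusted limma p under 0.05, with a median of -0.66, and 6 fell without wildtype day 7 mouse 2, 1 with the 5' minus 3' covariate and 4 with the poly-A covariate. Nfkbiz, a nuclear co-regulator of NF-kB, held 0.16, 0.10 and -0.31 on day 7 against -3.29, -3.14 and -2.97 on day 14 and fell by 3.11 ± 0.45 (limma adjusted p = 0.00334). The adhesion receptor Icam1 and the TNF-induced gene Tnfaip2 fell, with differences of -1.24 and -1.03, and 1 of the 3 probe sets of Tnfaip2 ran the other way. Of 19 Toll-like receptors and adaptors 8 fell and 1 rose, and 5 fell without wildtype day 7 mouse 2 and 2 with either covariate. Tlr2, a receptor for lipopeptides and fungal wall components, held 0.21, 0.23 and 0.09 on day 7 against -2.56, -1.98 and -1.53 on day 14 and fell by 2.20 ± 0.25 (limma adjusted p = 0.00111). The RNA sensors Tlr3 and Tlr7 and the kinase gene Irak2 fell, with differences of -1.66, -1.11 and -0.86.

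Receptors for fungi fell or did not pass. Of 23 measured members 6 fell and 0 rose, also at an unadjusted limma p under 0.05, with a median of -0.48, and 2 fell with the 5' minus 3' covariate and 4 with the poly-A covariate. Marco, a scavenger receptor for particles and microbes on alveolar macrophages, held -0.95, 0.13 and 1.10 on day 7 against -3.24, -4.96 and -2.04 on day 14. It fell by 3.50 ± 0.70 (limma adjusted p = 0.0132), with a wide spread among mice on both days. Clec4n, which encodes the mannan receptor dectin-2, and Syk, the kinase that relays its signal, fell, with differences of -1.53 and -1.10 (limma adjusted p = 0.00384 and 0.00541), and 1 of the 4 probe sets of Syk ran the other way. The glucan receptor gene Clec7a, known as dectin-1, held 0.19, 0.23 and 0.04 on day 7 against -0.12, -0.07 and -0.04 on day 14, a difference of -0.23 ± 0.09 that did not pass (limma adjusted p = 0.145). The mannose receptor gene Mrc1 held -0.03, -0.68 and 0.28 on day 7 against 0.23, 0.14 and 0.02 on day 14, a difference of 0.28 ± 0.32 (limma adjusted p = 0.69).

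Alternative activation genes rose in part. Of 21 measured members 5 rose and 1 fell, against 3.88% of all genes that rose, with a median of 0.49 and 16 of 21 differences above 0. The count of rises was 3 without wildtype day 7 mouse 2 or 3 or day 14 mouse 1, 9 without both IFNAR-/- arrays that stood apart, 1 with the 5' minus 3' covariate and 2 with the poly-A covariate. Besides Ccl24, already described, the lectin receptor Clec10a held -0.31, -0.80 and -0.30 on day 7 against 0.37, 0.99 and 1.51 on day 14 and rose by 1.43 ± 0.28 (limma adjusted p = 0.0118). Pdcd1lg2, which encodes the PD-1 ligand PD-L2, held -1.69, 0.27 and -0.49 on day 7 against 2.01, 1.52 and 1.02 on day 14 and rose by 2.15 ± 0.44 (limma adjusted p = 0.0147), with a limma adjusted p of 0.0501 without wildtype day 14 mouse 1. Il13ra2, a receptor for interleukin-13, rose by 1.87, a call lost without any 1 wildtype day 7 array. The transcription factor Klf4 was the member that fell, by 1.93. Retnla, a secreted marker of this state, held -0.15, -1.88 and -1.18 on day 7 against 1.16, 0.80 and 0.57 on day 14 and rose by 1.92 ± 0.47 (limma adjusted p = 0.0301), a call lost without any 1 of 5 wildtype arrays, all but day 7 mouse 1. Arg1, which breaks down arginine, held -0.58, -0.15 and -0.59 on day 7 against 0.41, 0.86 and 0.75 on day 14. Its days did not overlap, yet its difference of 1.11 ± 0.34 did not pass (limma adjusted p = 0.0699). The chitinase-like Chil3 differed by -0.06 ± 0.08, and Nos2, the inducible nitric oxide synthase, by -0.62 ± 0.73 (limma adjusted p = 0.729 and 0.697).

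Scavenging, haem and tissue macrophage genes moved in both directions. Of 20 measured scavenging and haem genes 4 rose, among them Cd163, and 2 fell, with a median of 0.04, and 2 rose without wildtype day 7 mouse 1 or 2 or day 14 mouse 1 or 2 and with either covariate. Hmox1, the enzyme that breaks down haem, held -0.71, -0.36 and -1.02 on day 7 against 0.75, 0.30 and 0.34 on day 14 and rose by 1.16 ± 0.17 (limma adjusted p = 0.00384). The ferritin heavy chain Fth1 fell by 0.59, and Hfe, a regulator of iron uptake, rose by 1.11, a call lost without any 1 of 5 wildtype arrays, all but day 7 mouse 3. Of 22 monocyte and interstitial macrophage markers 2 rose and 6 fell, and 2 fell with either covariate. Folr2, a folate receptor of tissue macrophages, held -0.09, 0.09 and -0.16 on day 7 against 2.22, 1.56 and 1.62 on day 14 and rose by 1.85 ± 0.18 (limma adjusted p = 4.94e-04). Cx3cr1, the fractalkine receptor, fell by 0.90 (limma adjusted p = 0.0046). Among lysosomal genes, of which 1 of 26 rose and 3 fell (1 without wildtype day 7 mouse 1 or 3 or day 14 mouse 2, and 5 without IFNAR-/- day 14 mouse 2), the protease Ctsl held -0.16, 0.11 and 0.02 on day 7 against 2.28, 1.32 and 1.52 on day 14 and rose by 1.72 ± 0.21 (limma adjusted p = 0.00149), while Ctsc fell by 1.22. No fall among the lysosomal genes passed with either covariate.

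Many markers of resident alveolar macrophages fell. Of 24 measured members 12 fell and 1 rose, with a median of -0.92, and the fits that left out 1 array called between 8 and 13 falls, that with the 5' minus 3' covariate 3 and that with the poly-A covariate 5. Krt19, a keratin that alveolar macrophages share with epithelium, held 0.61, -0.24 and 1.05 on day 7 against -3.57, -4.14 and -3.04 on day 14 and fell by 4.05 ± 0.55 (limma adjusted p = 0.00211). Cidec, a lipid droplet protein, held 0.36, -0.09 and 1.14 on day 7 against -3.04, -3.01 and -2.92 on day 14 and fell by 3.46 ± 0.51 (limma adjusted p = 0.00337). The lipoprotein lipase Lpl and the fatty acid binding protein Fabp1 fell, with differences of -2.27 and -3.80 (limma adjusted p = 0.00128 and 0.0125). Siglecf, a lectin of alveolar macrophages and eosinophils, held 0.67, -0.06 and 0.82 on day 7 against -0.98, -2.62 and -1.59 on day 14 and fell by 2.21 ± 0.47 (limma adjusted p = 0.0168), a call lost without wildtype day 7 mouse 1 or 3 or day 14 mouse 2. Car2, a carbonic anhydrase, rose by 2.53. Other defining genes did not pass: Pparg, the nuclear receptor that sets this cell's identity, differed by -1.15 ± 0.33, and Fabp4 by 0.41 ± 0.58 with 1 of its 4 probe sets running the other way (limma adjusted p = 0.0593 and 0.747). The list therefore did not move as 1 block.

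Lipid genes followed in small numbers. The lists share members, so a fall can be counted in more than 1 list. Cidec and Lpl are in both the lipid and the alveolar macrophage list. Members also held by other lists are 7 of 26 here, 14 of 24 alveolar macrophage markers and 16 of 23 receptors for fungi. Of 26 PPAR targets and fatty acid genes 5 fell and 0 rose, also at an unadjusted limma p under 0.05, with a median of -0.26, with 3 falls when wildtype day 14 mouse 2 was left out and 8 when IFNAR-/- day 14 mouse 1 was, and at most 2 with either covariate. The triglyceride synthesis enzymes Dgat2 and Dgat1 fell, with differences of -0.92 and -0.82, the latter call lost without wildtype day 7 mouse 2 or day 14 mouse 1 or 2. Of 14 efflux genes 2 rose and 1 fell: Ch25h, which makes 25-hydroxycholesterol, rose by 0.75, Apoc2, the cofactor of lipoprotein lipase, rose by 1.79, and Mylip, which degrades the LDL receptor, fell by 1.42. The call of Apoc2 was lost without wildtype day 7 mouse 2 or 3 or day 14 mouse 1 or 2. Of 19 cholesterol synthesis and uptake genes limma called 0, with 3 lower and 0 higher at an unadjusted p under 0.05, and of 21 glycolysis genes 0, with 2 lower and 5 higher.

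The called antigen presentation genes fell. Of 13 measured class II genes 2 fell and 0 rose (1 at an unadjusted limma p under 0.05): the invariant chain Cd74 fell by 0.43, lost without wildtype day 7 mouse 1 or 2 or day 14 mouse 3, and H2-Oa, a subunit of a peptide-loading regulator, fell by 1.35, lost in 8 of the 12 fits that left out 1 array. No class II gene passed with either covariate. The class II chain H2-Ab1 held 0.22, 0.64 and -0.03 on day 7 against -0.06, -0.01 and -0.28 on day 14, a difference of -0.39 ± 0.15 (limma adjusted p = 0.152). Of 15 class I genes 5 fell and 0 rose, also at an unadjusted limma p under 0.05, though 2 fell without wildtype day 7 mouse 2 or day 14 mouse 3 and 3 without day 7 mouse 1, and at most 1 fell with either covariate. The peptide transporter gene Tap2 and the class I gene H2-D1 fell, with differences of -1.06 and -0.83.

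Of 24 dendritic cell markers 7 fell and 3 rose, while 11 fell without both IFNAR-/- arrays that stood apart and 3 fell and 1 rose with either covariate. Ccr7, which guides mature dendritic cells to lymph nodes, held 0.70, 0.77 and 0.64 on day 7 against -0.82, -0.85 and -0.04 on day 14 and fell by 1.28 ± 0.20 (limma adjusted p = 0.00442). Cd83, a marker of mature dendritic cells, fell by 2.00 ± 0.32 (limma adjusted p = 0.00475). The rises were Ccl22, Ccl17 and Batf3, a transcription factor of cross-presenting dendritic cells, which rose by 1.10 ± 0.21 (limma adjusted p = 0.00988). The integrin gene Itgae, also a marker of that lineage, fell by 1.13 (limma adjusted p = 0.00861). Of 11 plasmacytoid dendritic cell markers limma called 0, with 1 lower and 3 higher at an unadjusted p under 0.05.

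Markers of other cells that the preparation could hold were read array by array. Of 20 T cell markers 1 fell, Icos, and of 19 cytotoxic and natural killer markers 3 fell, Klrk1, Il2rb and Fasl; each of these 4 calls was lost without wildtype day 7 mouse 1, among other arrays, and cytotoxic markers had 5 falls without IFNAR-/- day 14 mouse 2. No T cell or cytotoxic marker passed with either covariate. The list medians of cytotoxic markers were 0.48, 0.27 and 0.12 on day 7 against -0.38, -0.09 and -0.22 on day 14. Of 21 lung epithelial markers 2 fell and 1 rose, with a median of -1.08, and of 19 endothelial markers 1 fell, with a median of -0.98. Without wildtype day 7 mouse 1 these medians were -0.42 and -0.32. That mouse had list medians of 1.37 and 1.54, against at most 0.31 and 0.26 in the other wildtype mice. Of all 12 arrays IFNAR-/- day 7 mouse 3 was the highest, at 2.02 and 2.42. Of 19 fibroblast and 12 erythroid markers limma called 0, with 2 and 0 lower at an unadjusted p under 0.05. Without IFNAR-/- day 7 mouse 3, 4 epithelial, 3 endothelial and 5 fibroblast markers fell, and epithelial markers had 5 falls without wildtype day 7 mouse 3. With the poly-A covariate 12 epithelial, 12 endothelial and 13 fibroblast markers fell, with medians of -2.42, -2.51 and -1.55. With the 5' minus 3' covariate these medians were -0.55, -0.55 and -0.11. IFNAR-/- day 7 mouse 3 also had the lowest poly-A signal of the 12 arrays, at -3.6026. Mouse 1 and 2 of its group held 1.4110 and 0.5694. How far that array set the counts with the poly-A covariate was not tested. Of 16 neutrophil markers 1 fell, the formyl peptide receptor Fpr2, which held 0.21, 0.00 and 0.09 on day 7 against -1.72, -2.23 and -1.59 on day 14 (limma adjusted p = 2.46e-04). The part of these cells in the other differences was not tested.

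**Figure D3:**
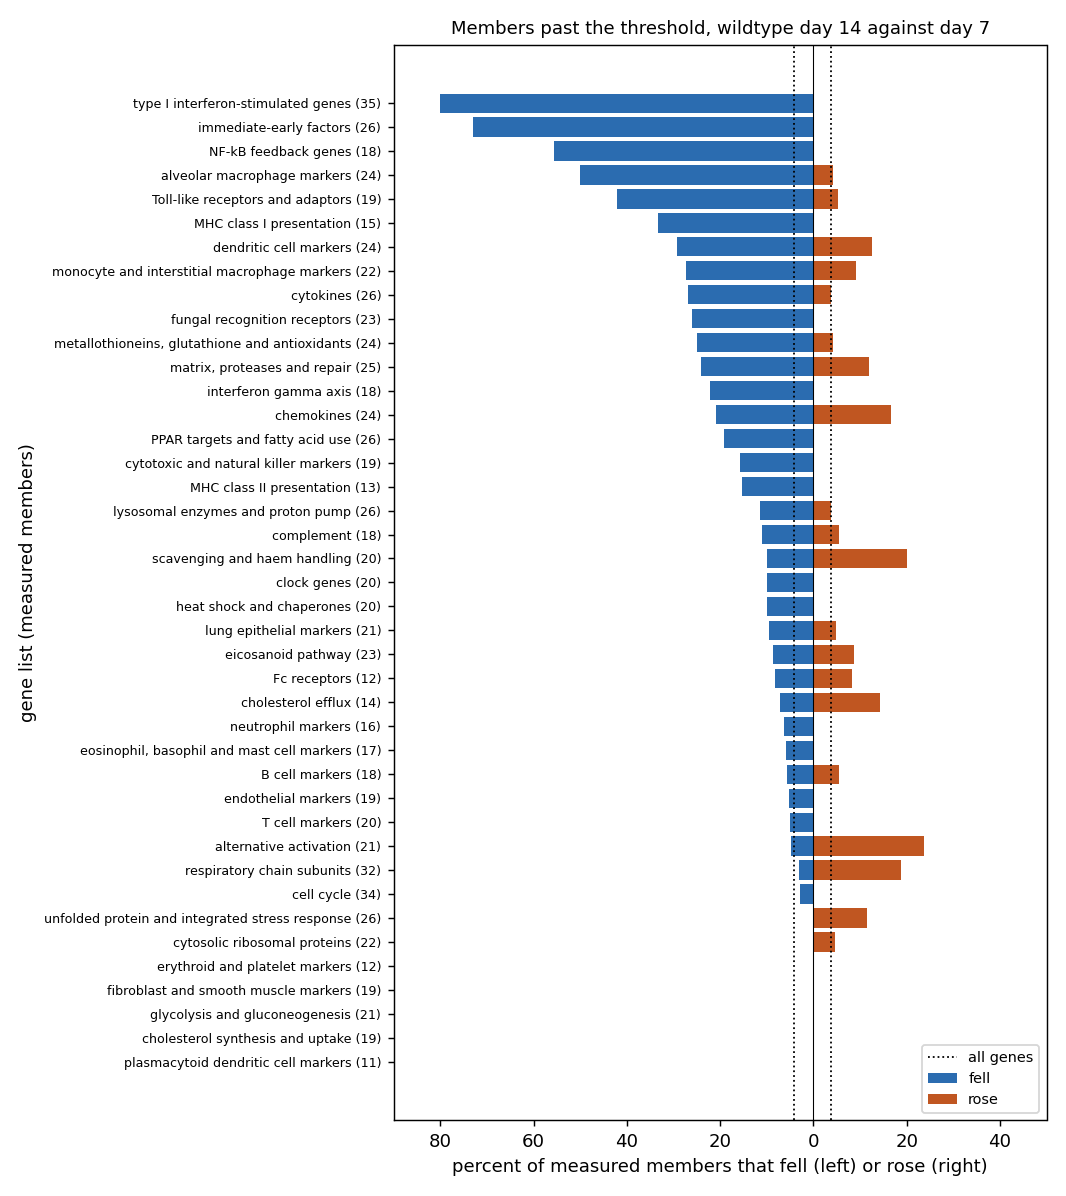
Percent of the measured members of 41 gene lists that fell (left, blue) or rose (right, orange) in wildtype, with the number of measured members in brackets. Dotted lines are the shares among all 18193 genes, 4.10% and 3.88%; interferon-stimulated genes reach 80% and immediate-early factors 73.1% falling.

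In the remaining lists the share past the threshold ran from 2.94% of cell cycle genes to 36% of matrix and repair genes. Of all genes 7.98% passed. Of 32 respiratory chain subunits 6 rose and 1 fell, with a median of 0.29 and 28 of 32 differences above 0. However, 1 or 2 rose without any 1 wildtype array other than day 7 mouse 3, and at most 2 with either covariate. Of 26 stress response genes 3 rose, or 5 without both IFNAR-/- arrays that stood apart, among them Chac1, which degrades glutathione, and the asparagine synthetase Asns, with differences of 1.66 and 1.38. Of 24 metallothionein and antioxidant genes 6 fell and 1 rose, and 2 fell without wildtype day 7 mouse 1 or day 14 mouse 2 or 3 and 2 or 3 with a covariate. The metallothionein Mt2, which binds zinc, held 0.75, -0.05 and 0.27 on day 7 against -2.16, -2.20 and -1.04 on day 14 and fell by 2.12 ± 0.40 (limma adjusted p = 0.0106). Of 25 matrix and repair genes 6 fell and 3 rose, and 2 fell without wildtype day 7 mouse 2 or day 14 mouse 2 or 3 and 3 without day 14 mouse 1, while 5 rose without both IFNAR-/- arrays that stood apart and at most 2 fell with either covariate. Thbs1, a matrix glycoprotein that activates TGF-beta, and the gelatinase Mmp2 fell, with differences of -3.17 and -2.97, and the sheddase Adam8 rose by 1.72. Of 34 cell cycle genes 1 fell, and 10 fell without wildtype day 14 mouse 3. Their median was -0.53, with 33 of 34 differences below 0 and 16 lower at an unadjusted limma p under 0.05. Mki67 differed by -0.83 ± 0.30 (limma adjusted p = 0.116). Of 22 ribosomal protein genes only Rps9 rose, by 1.79, with its 3 probe sets between 0.25 and 3.76. The leukotriene receptor Ltb4r1 rose by 1.59 and the prostaglandin receptor Ptger2 by 0.91, among 2 rises and 2 falls in 23 eicosanoid genes, with 5 falls without IFNAR-/- day 14 mouse 2 and 1 without wildtype day 7 mouse 1 or 3 or day 14 mouse 3.

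**Figure D4:**
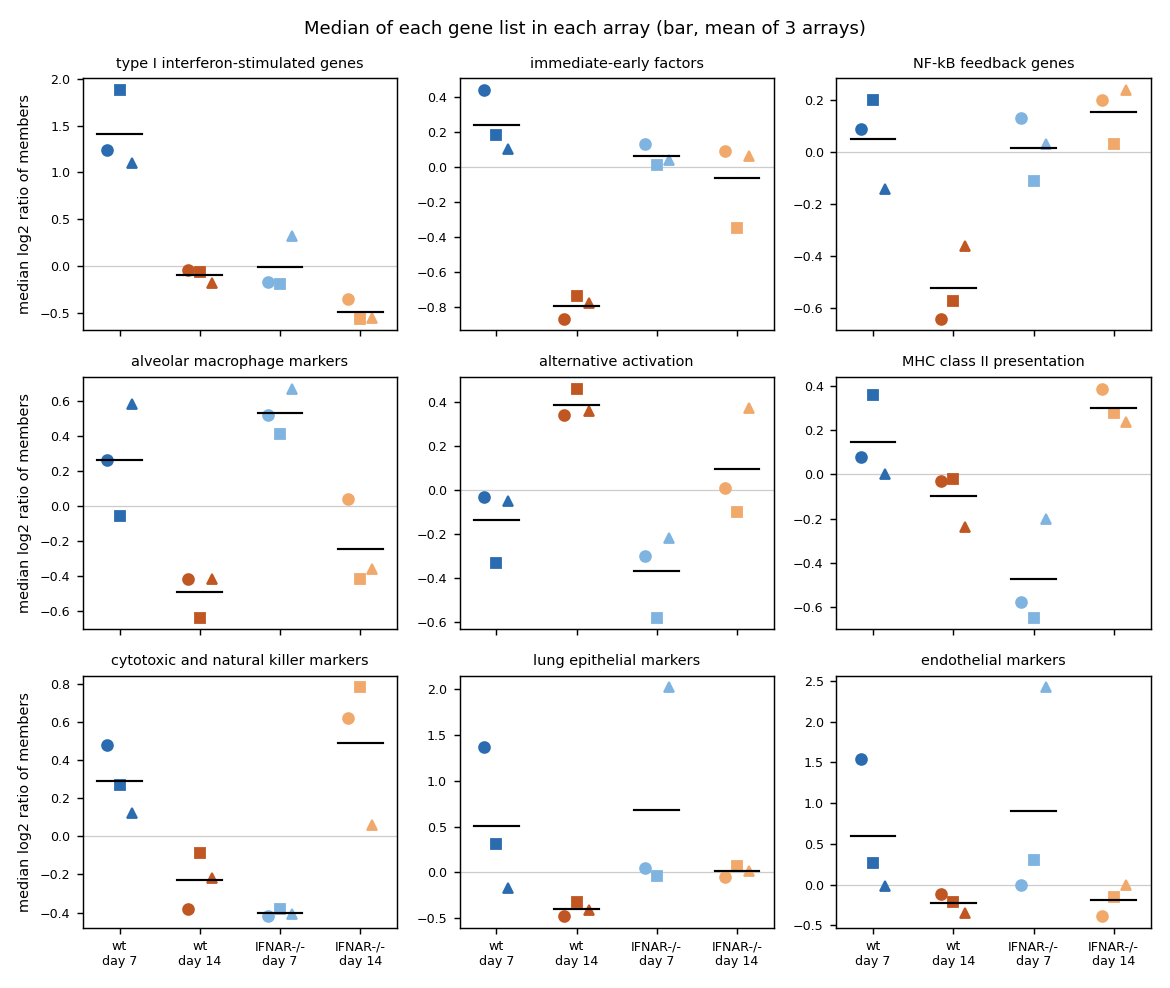
Median log2 ratio over the members of 9 gene lists in each of the 12 arrays, by group. Points are arrays (circle, square and triangle for mouse 1, 2 and 3) and bars are means of 3 arrays; interferon-stimulated genes are highest in wildtype day 7, at 1.24, 1.88 and 1.10, and wildtype day 7 mouse 1 is high in epithelial and endothelial markers, at 1.37 and 1.54.

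Whether a change differed between genotypes was asked by subtracting the change over the same days in IFNAR-/- mice, which shares no array with the wildtype change. In IFNAR-/- mice 2244 genes passed, 12.3%, of which 743 rose, 4.08%, and 1501 fell, 8.25%. The same 162 genes rose in both genotypes, 23% of the wildtype rises and 21.8% of the IFNAR-/- rises. A further 271 fell in both, 36.3% of the wildtype falls and 18.1% of the IFNAR-/- falls. The difference between the changes passed in 451 genes, 2.48%, with 243 above 0, 1.34%, and 208 below 0, 1.14%. Of the wildtype rises 86, or 12.2%, and of the falls 121, or 16.2%, were among these. The count of 451 was 138 without IFNAR-/- day 7 mouse 2, 168 without mouse 1 of that group, 262 without IFNAR-/- day 14 mouse 3, 180 and 167 without wildtype day 7 mouse 1 and 2, and 230 and 222 without wildtype day 14 mouse 2 and 3. With the 5' minus 3' covariate it was 3, and with the poly-A covariate 175.

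Cd163, Folr2 and Ctsl rose in wildtype, and their changes differed between genotypes. Cd163 held 0.70, 0.05 and -0.06 on day 7 against -0.43, -1.10 and 1.45 on day 14 in IFNAR-/- mice, and the wildtype change exceeded theirs by 4.38 ± 0.76 (limma adjusted p = 0.0181). Without both arrays that stood apart the adjusted p was 0.0257. Folr2 changed by 0.33 in IFNAR-/- mice (difference 1.53 ± 0.25, limma adjusted p = 0.0156), and Ctsl by -0.08 (difference 1.80 ± 0.30, limma adjusted p = 0.0168). In contrast Ccl24 rose by 5.40, Ccl22 by 3.36 and Timp1 by 3.92 in IFNAR-/- mice, and the difference between genotypes did not pass for them (limma adjusted p = 0.0893, 0.296 and 0.602).

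A part of the inflammatory falls made up the other side of the difference. It passed below 0 in 3 of 26 cytokines, 1 of 24 chemokines and 5 of 18 NF-kB feedback genes, and above 0 in 1 cytokine. For Il18, Cxcl1, Nfkbiz, Cxcl10 and Icam1, which fell in wildtype, it did not pass (limma adjusted p = 0.636, 0.181, 0.155, 0.156 and 0.12). Without both IFNAR-/- arrays that stood apart it passed for Cxcl1 at -2.68 and Nfkbiz at -2.71 (limma adjusted p = 0.0137 and 0.00721). Il18, Cxcl10 and Icam1 did not pass there either (limma adjusted p = 0.522, 0.124 and 0.202). Il1b held 0.02, -0.11 and -0.01 on day 7 against 0.30, -0.56 and 0.42 on day 14 in IFNAR-/- mice, and the wildtype change lay below theirs by -2.66 ± 0.30 (limma adjusted p = 0.00523). The wildtype change was also the lower for Ptgs2 at -5.61 ± 0.92 and Cxcl9 at -4.82 ± 0.74 (limma adjusted p = 0.015 and 0.0115), where Cxcl9 rose by 2.11 in IFNAR-/- mice. Ccr7 and Cx3cr1 also fell in wildtype and rose in IFNAR-/- mice, with differences of -2.07 ± 0.28 and -1.65 ± 0.20 (limma adjusted p = 0.00729 and 0.00542). Of the 35 interferon-stimulated genes 9 differed, all with the lower change in wildtype. In IFNAR-/- mice the median change of all 35 was -0.42, and 7 fell and 1 rose. Ifit3, Irf7 and Ifih1 fell there too, with differences of -2.60, -1.40 and -1.07. For these 3 genes the difference between genotypes did not pass (limma adjusted p = 0.455, 0.102 and 0.298). Without both IFNAR-/- arrays that stood apart it passed for Ifit3 at -2.05 and Irf7 at -1.92 (limma adjusted p = 0.0246 and 0.0419). Ifih1 did not pass there either (limma adjusted p = 0.415). In IFNAR-/- mice Ifit3 held 0.48, 0.53 and 3.18 on day 7. Of 13 class II genes 8 differed, with medians of -0.24 in wildtype and 0.67 in IFNAR-/- mice, and of 19 cytotoxic markers 8, with medians of -0.65 and 1.12. Alveolar macrophage markers had medians of -0.92 and -0.93, and the differences of Krt19, Cidec and Siglecf between genotypes had limma adjusted p of 0.564, 0.897 and 0.962.

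**Figure D5:**
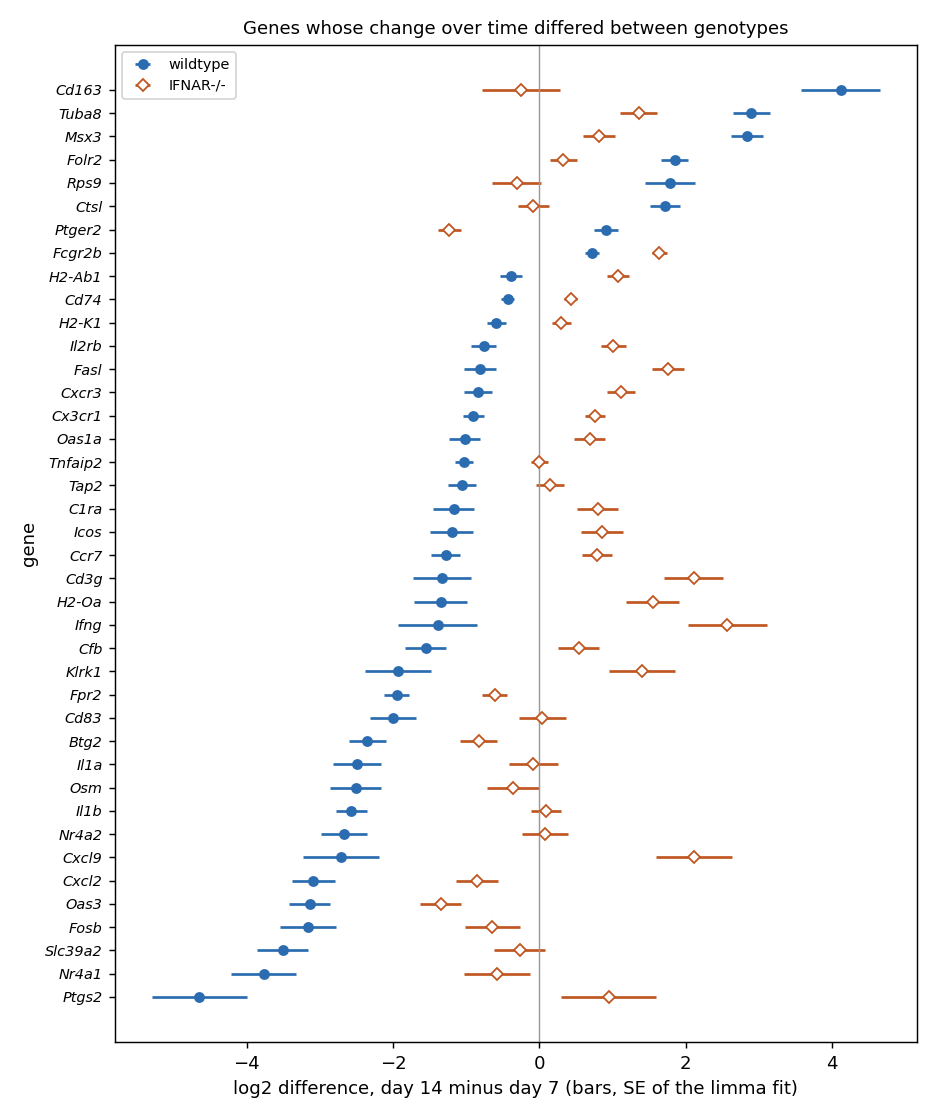
Change from day 7 to day 14 of the 40 named genes whose change differed between genotypes, in wildtype (filled blue) and IFNAR-/- mice (open orange), in log2 units with the SE of the limma fit as bars. Genes are ordered by the wildtype change, from Cd163 at 4.12 to Ptgs2 at -4.65; for Cd163 the IFNAR-/- change is -0.25 and for Ptgs2 0.95.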

How the data were processed

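RNA from CD11c+ lung cells of 12 mice was measured on 12 Affymetrix arrays. The authors deposited a linear ratio per probe set, and RMA is named, without a version, per the submitters' processing notes. That each ratio is to the probe set's own median is not stated: 100% of probe sets had a 12-array median within 0.02 of 1. Levels and signal over background are therefore unknown, and precision is limited by how many arrays there are.

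Of 45101 probe sets, 34945 carried 1 symbol (34741 matched RefSeq of GRCm38.p6 by Entrez ID), and their log2 ratios were averaged to 18193 genes, 9183 from 1 probe set. Control probe sets (64), those without a symbol (9160) and those with several (932) were left out. All columns were matched to a mouse by description. A separate mean per group, 4 in all, was estimated with limma 3.58.1 in R 4.3.3 (8 residual and 3.21 prior degrees of freedom), two-sided, with Benjamini-Hochberg adjustment and 0.05 as the threshold. The 133 named genes are the 12 largest rises and falls with non-overlapping days, from each of 41 lists at most 4 called members by lowest p, and a set of genes named whatever their value; members and lists were chosen with earlier results of these data known. Some list members outside that rule (Ifnb1, Il13ra2, Ccl17, Clec7a, Batf3, Itgae) were named after their values were seen.

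The fit was tested on simulated data. Promoter windows came from RefSeq. Mouse numbers name different animals on each day, and the labels do not pair them. Alternatives were other normalizations, another probe set rule, other variance models, the mouse number as a block, 6 arrays alone, each array left out, covariates for RNA signals and a 2-fold threshold.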

Additional observations from a re-analysis of the deposited data

Results flagged for a closer look

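For 40 named genes the change over time differed between wildtype and IFNAR-/- mice by the test of that difference. The wildtype change was the higher for Cd163 (4.38), Ptger2 (2.14), Rps9 (2.10), Msx3 (2.02), Ctsl (1.80), Tuba8 (1.54) and Folr2 (1.53), each given as wildtype minus IFNAR-/- in log2 units. It was the lower for the inflammatory genes Ptgs2 (-5.61), Il1b (-2.66), Il1a (-2.41), Cxcl2 (-2.24), Osm (-2.15), Fpr2 (-1.33) and Tnfaip2 (-1.03), and for the immediate-early genes Nr4a1 (-3.20), Nr4a2 (-2.75), Fosb (-2.53) and Btg2 (-1.51). Genes of interferon responses and T or natural killer cells had Cxcl9 at -4.82, Ifng at -3.96, Cd3g at -3.44, Klrk1 at -3.34, Fasl at -2.58, Icos at -2.05, Cxcr3 at -1.96, Oas3 at -1.79, Il2rb at -1.76 and Oas1a at -1.70. Genes of antigen presentation and dendritic cells had H2-Oa at -2.90, Ccr7 at -2.07, Cd83 at -2.04, H2-Ab1 at -1.46, Tap2 at -1.21, H2-K1 at -0.89 and Cd74 at -0.86. The rest were Slc39a2 at -3.24, the complement genes Cfb at -2.09 and C1ra at -1.97, Cx3cr1 at -1.65 and the Fc receptor Fcgr2b at -0.91.

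Of these 40 genes 33 also passed without both IFNAR-/- arrays that stood apart, 21 in every fit that left out 1 array, 17 with the poly-A covariate and 0 with the 5' minus 3' covariate (limma). The wildtype call of H2-K1 was lost without wildtype day 7 mouse 2 or day 14 mouse 3, and that of C1ra without day 7 mouse 1 or 2 or day 14 mouse 1 or 3. Ifng, Cd3g and H2-Ab1 did not pass in wildtype alone, with limma adjusted p of 0.149, 0.0708 and 0.152.

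A fit of all 45037 probe sets, each by itself, included 10092 without a single gene symbol, which entered no comparison above. Of these 268 passed the threshold, 2.66%, with 127 higher and 141 lower at day 14. Among the 34945 probe sets with 1 symbol 6.6% passed. The 2 lowest differed by -4.40 ± 0.92 and -3.57 ± 0.44, and 2.34 ± 0.25 and 2.09 ± 0.54 were the 2 highest (limma adjusted p = 0.0188, 0.00201, 0.00125 and 0.0474).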

How the results depend on the processing

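The 1451 wildtype calls became 2688 with array weights, 2428 without both IFNAR-/- arrays that stood apart, 819 with the poly-A and 154 with the 5' minus 3' covariate, 14 in a test of at least 2-fold, 2421 over single probe sets, and 716 to 2169 with 1 array left out. The 451 differences between genotypes became 1765, 579, 175, 3 and 1 in the first 5 of these settings, and 138 to 485 with 1 array left out. Quantile normalization (1858 and 576), subtraction of array medians (1458 and 459), another probe set rule (1691 and 516) and a trended prior (1318 and 302) stayed within 1.5 times. Of 133 named genes 120 passed, 51 with the poly-A covariate, 38 with the 5' minus 3' covariate and 9 in the 2-fold test. With mouse number as a replicate block 1228 genes and 116 named genes passed, which lost H2-Oa, Pdia6, Icos and Bhlhe41. In deviations from the group means, same-numbered wildtype mice correlated at -0.0565, 0.2184 and 0.0340. Differently numbered ones lay between -0.1867 and 0.1181. With 3 arrays a day these values cannot show if same-numbered mice shared more than a label. Over all alternatives named genes kept their side of the threshold in 2651 cases, lost the call in 515 and gained it in 23. No gene past the threshold reversed direction. Changes of sign in genes not past it were not counted apart, and such cases are among the 2651 if they occurred. Precision is limited by 3 arrays a day, and signal over background is unknown. The cause of these shifts was not tested.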
